A study of Mus musculus with 3 samples.

Results

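The genes described here are those of the major histocompatibility complex (MHC, called H2 in the mouse) and of the machinery that supplies it with peptides. They were chosen by name, as every probe set annotated with a symbol that begins with H2- or with B2m, Tap1, Tap2, Tapbp, Tapbpl, Psmb8, Psmb9, Psmb10, Psme1, Psme2, Erap1, Ciita, Nlrc5, Cd74, Rfx5 or Rfxank. This gave 74 of 24800 probe sets, of which 63 carried exactly 1 symbol, for 45 genes, and 11 carried several symbols and are given apart. RNA of sorted CD4+CD8- thymocytes was hybridised to 3 Affymetrix arrays, 1 each for PLZF lu/lu, PLZF +/lu and PLZF +/+ cells, to compare gene expression with and without functional PLZF, a transcription factor of innate-like T cells. Luxoid (lu) is a point mutation of the PLZF gene, so PLZF lu/lu cells carry 2 mutant copies, PLZF +/lu cells 1 and PLZF +/+ cells none. All of these mice, the PLZF +/+ ones included, lacked Rag1 and carried transgenes for a Vγ1Vδ6.4 T cell receptor, as the study's methods state, and by the labels the animals were C57Bl/6 females of 3 to 4 weeks. The receptor is therefore fixed by the transgene, and the cells stand for the γδ NKT cells that the labels name only within this model. The luxoid allele is described as acting like a knockout in NKT cells. The sources used here do not say how many mice each RNA came from.

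There was 1 array per genotype, so no difference has a replicate check and no test was run. The values are probe set intensities on a linear scale, and sizes are given as folds or log2 differences. Differences were counted past 2-fold, past 1.5-fold and past 0.32 on the log2 scale. A level of 108 (the 95th percentile of 1033 olfactory receptor probe sets, genes of smell neurons) stood for background. Of the 63 probe sets with 1 symbol, 45 lay above that level on all 3 arrays and 18 below it on all 3. The array medians were between 159.7 and 161.8. Many probe sets had identical values on all 3 arrays, 45.1% overall and 15 of the 63, so a difference of 0.00 is often an exact tie in the deposited values. Zbtb16, which encodes PLZF, was at 2890 in PLZF lu/lu, 6143 in PLZF +/lu and 8796 in PLZF +/+ cells. Of 10 measured marker genes of the labelled cells, 9 lay above background. The T cell genes Cd3e and Cd4 were bright on each array, at 10549.6 or more and 6208 or more, and the exception was Klrb1c, which encodes NK1.1, at 29.5 on all 3 arrays. Cd44 was at 204 in PLZF lu/lu, 247 in PLZF +/lu and 272 in PLZF +/+ cells, and Il4 at 170, 170 and 224. Past 0.32 lower in PLZF lu/lu than in PLZF +/+ were 3 of the 10, Zbtb16, Cd44 and Il4, beside 3.04% of all probe sets. None was past 0.32 higher, so the markers were not alike on the 3 arrays.

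MHC class I molecules consist of a heavy chain and the light chain β2-microglobulin and show peptides from inside the cell to CD8+ T cells and NK cells. The peptides are cut by the proteasome, of which the immunoproteasome is a variant, carried into the endoplasmic reticulum by the TAP transporter and trimmed there. Class II molecules are made chiefly by antigen presenting cells, and T cells of the mouse express little of them. The promoters of class I genes are activated by NLRC5 and those of class II genes by CIITA, which both bind through the RFX complex and the NF-Y factor at the CCAAT box. Interferons raise most of these genes.

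To show this shared promoter layout, 6 stretches of 150 bases are given, each ending at the base before the annotated transcription start. They belong to the heavy chain genes H2-K1, H2-D1, H2-Q2, H2-Q4 and H2-T23, whose probe sets were dimmest in PLZF +/+ cells, and to B2m. The probe sets of H2-K1, H2-D1 and H2-T23 carry several symbols. B2m was also dimmest in PLZF +/+ cells, but by only 0.04 on the log2 scale. The sequences are from RefSeq (GRCm38.p6) and read 5′ to 3′ on the strand of the gene. Capitals mark matches on either strand to the CCAAT box (CCAAT) and to the interferon-stimulated response element (GAAA and GAAA with any 2 bases between them).
H2-K1: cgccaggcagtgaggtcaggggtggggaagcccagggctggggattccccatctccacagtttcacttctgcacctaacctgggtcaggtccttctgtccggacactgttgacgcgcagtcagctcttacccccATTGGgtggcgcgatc
H2-D1: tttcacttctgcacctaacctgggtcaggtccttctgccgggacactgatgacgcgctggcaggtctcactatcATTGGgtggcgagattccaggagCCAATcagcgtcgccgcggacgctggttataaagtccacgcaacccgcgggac
H2-Q2: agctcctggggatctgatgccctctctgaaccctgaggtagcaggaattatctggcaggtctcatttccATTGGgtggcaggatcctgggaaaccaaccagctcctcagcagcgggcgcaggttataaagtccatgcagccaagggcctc
H2-Q4: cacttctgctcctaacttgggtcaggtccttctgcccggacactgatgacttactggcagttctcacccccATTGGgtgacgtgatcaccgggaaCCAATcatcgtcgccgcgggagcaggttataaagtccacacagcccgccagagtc
H2-T23: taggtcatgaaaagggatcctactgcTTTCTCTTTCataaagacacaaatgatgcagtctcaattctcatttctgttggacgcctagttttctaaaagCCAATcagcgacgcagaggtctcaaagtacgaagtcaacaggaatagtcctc
B2m: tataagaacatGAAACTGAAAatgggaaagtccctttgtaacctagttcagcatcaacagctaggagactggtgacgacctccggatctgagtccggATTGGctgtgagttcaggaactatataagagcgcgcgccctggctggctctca
H2-K1 lies at chr17:34000348-34000497 (minus strand), H2-D1 at chr17:35262944-35263093 (plus strand) and H2-Q2 at chr17:35342157-35342306 (plus strand). H2-Q4 lies at chr17:35379467-35379616 (plus strand), H2-T23 at chr17:36032702-36032851 (minus strand) and B2m at chr2:122147537-122147686 (plus strand).

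H2-D1 and H2-Q4 held 2 CCAAT boxes in these stretches and H2-K1, H2-Q2, H2-T23 and B2m 1 each. For H2-K1 another CCAAT box lay just after the annotated start used here, outside the stretch, so its count depends on that start. The exact letters of the response element matched in H2-T23 and B2m and in none of the other 4. A promoter was in the table for 42 of 58 member symbols, as 46 sequences of 300 bases with 250 before the start. Nlrc5, Ciita, Cd74 and Tap2 were among those without one. H2-K1, H2-M9 and Psme2 are each counted more than once, with overlapping sequences, so the sequences are not independent. Many of the heavy chain promoters belong to genes of the M region, most of which lay below the background level. A CCAAT box was found in 21 of 24 heavy chain promoters, 8 of 9 class II promoters and 3 of 9 promoters of peptide supply genes, against 37.4% of all 32851 promoters. The response element was found in 5 of the 46, against 3.44%, the interferon γ-activated sequence (TTCNNNGAA) in 4, against 8.3%, and a κB-like sequence (GGG and TTCC with any 3 bases between them) in 3, against 5.56%. Both strands were searched for these exact letters only. Such a match is a run of letters, not a site, and a promoter without a match can still hold a variant of the element.

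Nlrc5, which encodes the class I transactivator, had lower values in PLZF +/+ cells than in cells with a luxoid allele. The array carries 19 probe sets for this gene, which share accessions, all measure 1 gene in the same 3 RNAs and are not replicates of it. The brightest was at 2709 in PLZF lu/lu, 3089 in PLZF +/lu and 1970 in PLZF +/+ cells, 1.37-fold and 1.57-fold higher than in PLZF +/+. The median over the 19 was 924 in PLZF lu/lu (range 423 to 2709), 1101 in PLZF +/lu (range 371 to 3089) and 731 in PLZF +/+ cells (range 261 to 1970).

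All 19 probe sets of Nlrc5 were dimmest in PLZF +/+ cells, whereas 12% of all probe sets and 13.9% of those above the level were. PLZF lu/lu and PLZF +/lu were not ordered, since PLZF lu/lu was brighter at 9 of them and PLZF +/lu at 10. The log2 differences from PLZF +/+ were 0.12 to 0.83 for PLZF lu/lu, with a median of 0.57, and 0.12 to 0.83 for PLZF +/lu, with a median of 0.55. Past 0.32 higher than PLZF +/+ were 14 of the 19 in PLZF lu/lu, beside 2.55% of all probe sets, and 17 in PLZF +/lu, beside 1.85%. Of the 15090 probe sets above the level, 498 passed in PLZF lu/lu and 363 in PLZF +/lu. Past 1.5-fold were 8 and 7, and none reached 2-fold.

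**Figure D1:**
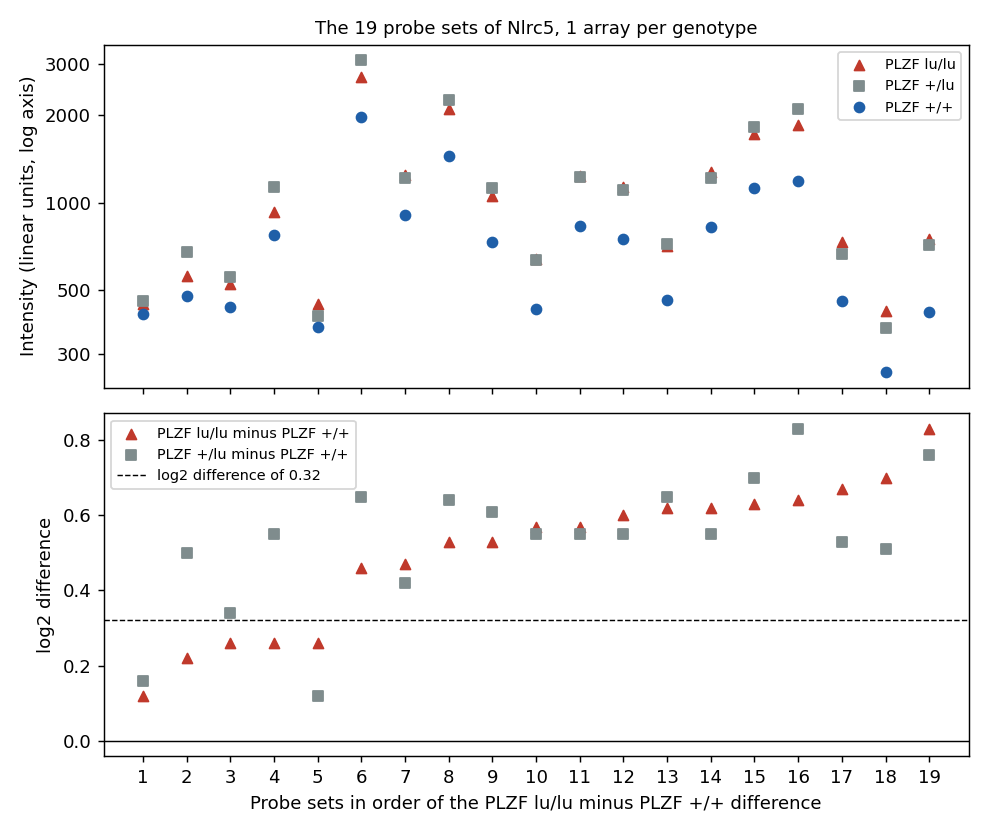
Intensities on a log axis (upper panel) and log2 differences from PLZF +/+ (lower panel) of the 19 Nlrc5 probe sets, without error bars because each genotype had a single array. Triangles are PLZF lu/lu, squares PLZF +/lu and circles PLZF +/+, and in the upper panel the circle is the lowest symbol at all 19 probe sets.

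The other regulators differed little. Rfx5, a DNA-binding subunit of the RFX complex, was at 647 on all 3 arrays, and Rfxank, its ankyrin-repeat subunit, was at 872 in PLZF lu/lu and PLZF +/lu and 881 in PLZF +/+ cells. Ciita, the class II transactivator, was at 77.9 on all 3 arrays, below the background level. The difference among the regulators was thus that of Nlrc5, and counted with 1 probe set per gene the median of the 4 regulators was 0.00 in both comparisons with PLZF +/+, against 0.53 for PLZF lu/lu and 0.55 for PLZF +/lu over all 22 probe sets.

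Of the class I heavy chains, most that were above background were also dimmest in PLZF +/+ cells. The classical heavy chain genes H2-K1 and H2-D1, which are nearly alike in sequence, share both of their probe sets, so neither can be read alone. The probe set listed for H2-D1, LOC547349 and H2-K1, in this order, was at 4555 in PLZF lu/lu, 5164 in PLZF +/lu and 3836 in PLZF +/+ cells. The one listed for H2-K1, LOC547349 and H2-D1 was at 2008, 2392 and 1610 in the same order of genotypes. The log2 differences from PLZF +/+ were 0.25 and 0.32 in PLZF lu/lu, both short of the threshold, the second by the third decimal. In PLZF +/lu they were 0.43 and 0.57, or 1.35-fold and 1.49-fold. PLZF +/lu was thus the brightest array at both.

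H2-Q2, a heavy chain gene of the Q region, was the member with the largest difference. It was at 592 in PLZF lu/lu, 363 in PLZF +/lu and 248 in PLZF +/+ cells, 2.39-fold higher in PLZF lu/lu than in PLZF +/+ and 1.46-fold higher in PLZF +/lu. Unlike Nlrc5 it was graded, with PLZF +/lu between the outer genotypes, and PLZF lu/lu was 1.63-fold above PLZF +/lu. It was the 1 member of 63 past 2-fold between PLZF lu/lu and PLZF +/+, beside 0.589% of all probe sets. Against the mean of PLZF +/lu and PLZF +/+ its log2 difference was 0.98, just under 2-fold.

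H2-Q4 was at 732 in PLZF lu/lu, 865 in PLZF +/lu and 545 in PLZF +/+ cells, and PLZF +/lu was 1.59-fold above PLZF +/+. H2-Q5, annotated as a transcribed pseudogene, was at 275, 247 and 191 in the same order of genotypes. H2-T24, of the T region, was at 1180, 1201 and 929. All 3 were dimmest in PLZF +/+ cells, but H2-Q5 was brightest in PLZF lu/lu and the other pair in PLZF +/lu.

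The remaining class Ib genes with 1 symbol and a level above background were less than 0.32 apart on the log2 scale. H2-M3, which presents formylated bacterial peptides, was at 811 on all 3 arrays. H2-T10, whose product is a known ligand of some γδ T cell receptors although RefSeq lists a transcribed pseudogene, was at 1072 in PLZF lu/lu, 1176 in PLZF +/lu and 1049 in PLZF +/+ cells. The pseudogene H2-K2 was at 492, 463 and 436 in the same order of genotypes. The other 13 class Ib probe sets, among them H2-Q10, H2-Bl and 11 of the M region, lay below the background level on all 3 arrays.

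Further class Ib probe sets carried several symbols. The one listed for H2-T-ps and H2-T23 (H2-T23 encodes Qa-1, a ligand of inhibitory NK receptors) was at 2040 in PLZF lu/lu, 1842 in PLZF +/lu and 1570 in PLZF +/+ cells, 1.30-fold higher in PLZF lu/lu than in PLZF +/+. That of H2-Q6 and H2-Q8, of the Qa-2 family, was at 405 in both genotypes with a luxoid allele and 339 in PLZF +/+ cells. That of H2-T9, H2-T22 and H2-T10 was at 1138 in PLZF lu/lu, 981 in PLZF +/lu and 983 in PLZF +/+ cells, so here PLZF +/lu was not raised. The probe sets of H2-Q1 with H2-Bl, and of H2-T3 with H2-T18, were at most 152 and 76.5.

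Over the 13 heavy chain probe sets above background, whatever their number of symbols, 12 were higher in PLZF lu/lu than in PLZF +/+, beside 21.9% of all probe sets above the level, and 1 was equal, with a median log2 difference of 0.25, beside a median of 0.00 over all probe sets. In PLZF +/lu, 11 were higher, beside 23%, 1 lower and 1 equal (13 higher after quantile normalization, 11 higher and 2 lower after median centring), with the same median of 0.25. Over all 27 heavy chain probe sets, the dim ones included, 13 were higher, 1 lower and 13 equal in PLZF lu/lu, and 17 higher, 2 lower and 8 equal in PLZF +/lu. The equal ones take the sign of any rescaling, so that 14 of the 27 were lower in PLZF lu/lu after quantile normalization and 1 after median centring. Among those above background, PLZF +/+ was the dimmest array at 11 of the 13, against 13.9% of all probe sets above the level. Heavy chain genes are close copies of each other and can share probes, so these probe sets are not independent and a level may include RNA of a relative.

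B2m, which encodes the light chain of all these molecules, was at 13648 in PLZF lu/lu and PLZF +/lu and 13252 in PLZF +/+ cells. This is a difference of 0.04 on the log2 scale and smaller than that of either probe set of the classical heavy chains.

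**Figure D2:**
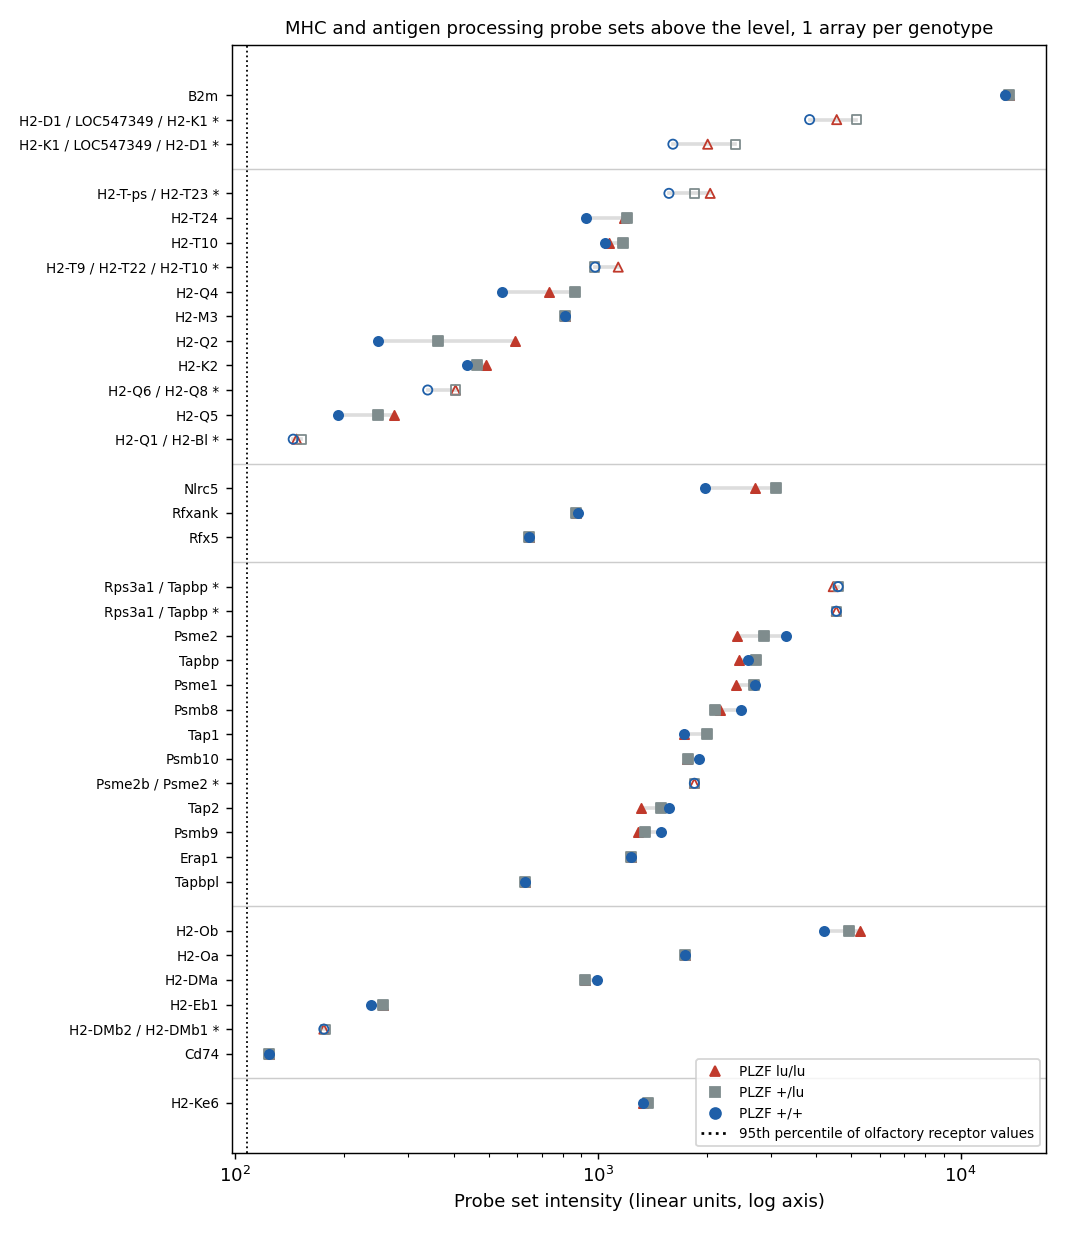
Intensity (log axis) of the member probe sets above the level of 108 (dotted line), grouped from top to bottom as classical class I with B2m, class Ib, regulators, peptide supply, class II and H2-Ke6, with Nlrc5 shown by its brightest probe set and 1 array per genotype. Triangles are PLZF lu/lu, squares PLZF +/lu and circles PLZF +/+, open symbols and a star mark probe sets with several symbols, and for most heavy chains the circle lies farthest left while for Psme2, Psmb8 and Psmb9 it lies farthest right.

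The genes of peptide supply were lower or level in PLZF lu/lu. In the values as deposited, none of the 10 was higher in PLZF lu/lu than in PLZF +/+ cells, beside 21.9% of all probe sets above the level, 7 were lower, beside 34.8%, and 3 were equal. After quantile normalization the 3 equal genes, Erap1, Tap1 and Tapbpl, were higher by 0.02 to 0.03 on the log2 scale, the same 7 were lower, and the median difference was -0.13, against -0.14 as deposited. In PLZF +/lu against PLZF +/+, 2 were higher, 6 lower and 2 equal as deposited, and 5 higher and 5 lower after quantile normalization. Psme2, a subunit of the PA28 activator of the proteasome, was at 2412 in PLZF lu/lu, 2878 in PLZF +/lu and 3306 in PLZF +/+ cells, 1.37-fold lower in PLZF lu/lu than in PLZF +/+. It was the 1 member of 63 past 0.32 lower, beside 3.04% of all probe sets. A second probe set, listed for Psme2b and Psme2, was at 1845 on all 3 arrays and shares accessions with the first. Psme1, the partner subunit, was at 2409, 2698 and 2713 in the order PLZF lu/lu, PLZF +/lu and PLZF +/+.

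The catalytic subunits of the immunoproteasome were each brightest in PLZF +/+ cells, by less than 0.32 on the log2 scale. Psmb8 was at 2170 in PLZF lu/lu, 2106 in PLZF +/lu and 2473 in PLZF +/+ cells. Psmb9 was at 1290, 1350 and 1495 in the same order, and Psmb10 at 1757, 1766 and 1899. Their log2 differences between PLZF lu/lu and PLZF +/+ were -0.19, -0.21 and -0.11.

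The subunits of the peptide transporter did not move alike. Tap1 was at 1731 in PLZF lu/lu, 1994 in PLZF +/lu and again 1731 in PLZF +/+ cells, a log2 difference of 0.20 for PLZF +/lu. Tap2 was at 1313 in PLZF lu/lu, 1491 in PLZF +/lu and 1568 in PLZF +/+ cells. Tapbp, which encodes tapasin, the bridge between transporter and heavy chain, was at 2455, 2734 and 2589 in the same order of genotypes. The trimming peptidase gene Erap1 was at 1235 and the tapasin relative Tapbpl at 629 on all 3 arrays. Another 2 probe sets are listed for Tapbp together with the ribosomal protein gene Rps3a1, and with values between 4456 and 4597 they differed by at most 0.04 on the log2 scale.

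Class II genes were mostly at or near background, apart from some of the peptide editors. H2-Aa and H2-Ab1, the chains of the class II molecule of C57BL/6 mice, were at most 91.4 and 97.7, below the level of 108. Cd74, the invariant chain, was at 124 on all 3 arrays, just above it. H2-Eb1 was at 256 in PLZF lu/lu and PLZF +/lu and 237 in PLZF +/+ cells, and H2-Ea, its partner and a pseudogene here, was at 40.8 on all of them.

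Of the editor genes, H2-Ob, H2-Oa and H2-DMa were well above it. H2-Ob, which encodes the beta chain of H2-O, an inhibitor of class II peptide loading, was at 5269 in PLZF lu/lu, 4918 in PLZF +/lu and 4202 in PLZF +/+ cells, a log2 difference of 0.33 for PLZF lu/lu. Its partner H2-Oa was at 1740 on all 3 arrays. H2-DMa, of the loading catalyst H2-DM, was at 921 in PLZF lu/lu and PLZF +/lu and 995 in PLZF +/+ cells. The shared probe set of H2-DMb2 and H2-DMb1 was dimmer, between 175 and 177. H2-Ke6 carries an H2 symbol but encodes a steroid dehydrogenase, and it was at 1329 in PLZF lu/lu, 1372 in PLZF +/lu and 1329 in PLZF +/+ cells.

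By size, 19 of the 63 probe sets with 1 symbol were past 0.32 higher in PLZF lu/lu than in PLZF +/+ cells, beside 2.55% of all probe sets, and 1 was lower. In PLZF +/lu against PLZF +/+, 21 were higher, beside 1.85%, and none lower, beside 2.95%. These counts lean on Nlrc5. With 1 probe set per gene, 6 of 45 genes passed upward in PLZF lu/lu, namely H2-Q2, H2-Q5, H2-Q4, Nlrc5, H2-T24 and H2-Ob, and Psme2 passed downward. In PLZF +/lu 5 passed upward, which are the same genes without H2-Ob.

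Past 1.5-fold were 9 of the 63 between PLZF lu/lu and PLZF +/+ (8 of Nlrc5 and H2-Q2), beside 1.77% of all probe sets, and 8 between PLZF +/lu and PLZF +/+ (7 of Nlrc5 and H2-Q4), beside 1.15%. Between PLZF lu/lu and PLZF +/lu, H2-Q2 was the 1 probe set past 0.32, beside 3.42%, and the 1 past 1.5-fold, beside 1.06%. Past 2-fold, none of the 63 differed between PLZF +/lu and PLZF +/+, beside 0.234%, or between PLZF lu/lu and PLZF +/lu, beside 0.319%. The heterozygous array was the brightest at 22 of the 63, beside 13.3%, of which 10 were of Nlrc5. Only 16 of the 22 lay above the background level, out of 45 members there, beside 1951 of 15090 probe sets. The PLZF +/+ array serves in both comparisons with it, so a low value there enters both.

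**Figure D3:**
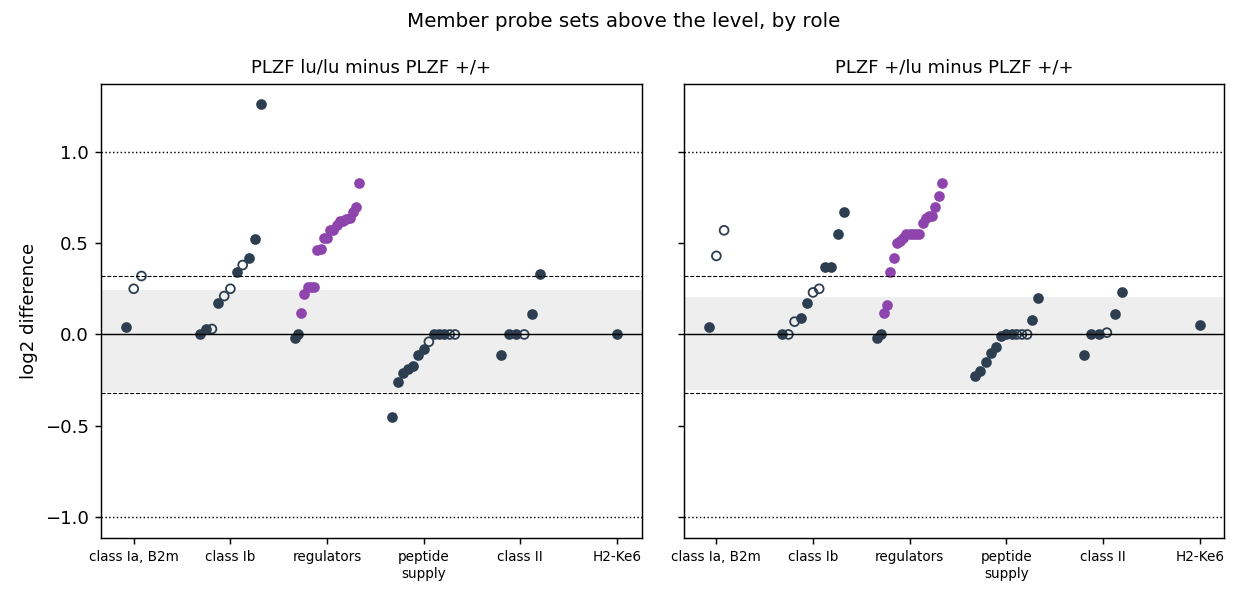
Log2 differences of the member probe sets above the level, PLZF lu/lu minus PLZF +/+ on the left and PLZF +/lu minus PLZF +/+ on the right, with the Nlrc5 probe sets in purple, open circles for probe sets with several symbols, dashed lines at a log2 difference of 0.32, dotted lines at 2-fold and a grey band from the 5th to the 95th percentile of all probe sets above the level (-0.31 to 0.24 on the left, -0.30 to 0.20 on the right). In the values as deposited, on the left, heavy chains and Nlrc5 lie at or above 0, the peptide supply genes lie at or below 0, and 1 point, H2-Q2, lies past 2-fold.

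Genes that act above the MHC genes were taken from a list of interferon signalling and MHC inducers, of which 21 of 23 had a probe set of their own. Of these, 1 was past 0.32 higher in PLZF lu/lu than in PLZF +/+ cells, beside 2.55% of all probe sets, and 1 lower, beside 3.04%, and the median difference was 0.00. A share of 1 in 21 at this threshold is near that background. The gene that was higher and the gene that was lower are the chains of the interferon γ receptor. Past 2-fold was 1 of the 21, Ifngr1, 3.82-fold higher in PLZF lu/lu than in PLZF +/+, beside 0.589% of all probe sets in either direction. In PLZF +/lu it was 2.09-fold higher than in PLZF +/+, again the 1 gene past 2-fold, beside 0.234%. Ifngr1, the ligand-binding chain, was at 7152 in PLZF lu/lu, 3906 in PLZF +/lu and 1872 in PLZF +/+ cells, while Ifngr2, the signalling chain, was at 967, 1135 and 1602 in the same order. Irf1, a direct activator of class I promoters, was at 1221, 1176 and 1285, and Irf9, of the interferon-response complex, was at 1307 on all 3 arrays. Irf7, itself raised by type I interferon, was at 841 in PLZF lu/lu, 1031 in PLZF +/lu and 842 in PLZF +/+ cells, so the heterozygous array was the brightest.

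Of 17 constitutive proteasome and activator genes, 16 lay above the level. Of these, 14 were lower in PLZF lu/lu than in PLZF +/+ cells, beside 34.8% of all probe sets above the level, and none was higher in the values as deposited, with a median log2 difference of -0.19. Past 0.32 lower were 5, beside 699 of 15090 probe sets above the level. Over the 17, 2 were higher after quantile normalization and 3 after median centring. Psmb5, the chymotrypsin-like subunit that Psmb8 replaces, was at 2687 in PLZF lu/lu, 2986 in PLZF +/lu and 4130 in PLZF +/+ cells, 1.54-fold lower in PLZF lu/lu. Psmb6, which Psmb9 replaces, was at 1057, 1175 and 1506 in the same order. Psmb7, which Psmb10 replaces, was at 989, 955 and 1126. Psmb11, of the thymic epithelial proteasome, lay below the level on all 3 arrays.

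Of 17 measured genes of loading in the endoplasmic reticulum and of lysosomal processing, 4 were past 0.32 lower in PLZF lu/lu than in PLZF +/+, beside 3.04% of all probe sets, and none higher, beside 2.55%, with a median of -0.02. The lysosomal peptidase gene Lgmn was at 287 in PLZF lu/lu, 278 in PLZF +/lu and 460 in PLZF +/+ cells, and the lysosomal reductase gene Ifi30 at 696, 759 and 1118 in the same order. The chaperone genes Hspa5 and Calr were 1.45-fold and 1.34-fold lower in PLZF lu/lu than in PLZF +/+. Among the class I-like genes, 7 of 13 had their own probe set and 3 of these were above the level. Cd1d1, which presents lipids to NKT cells, was at 1052 on all 3 arrays, and Mr1, which presents vitamin metabolites, was at 2691 in PLZF lu/lu, 3386 in PLZF +/lu and 3411 in PLZF +/+ cells.

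**Figure D4:**
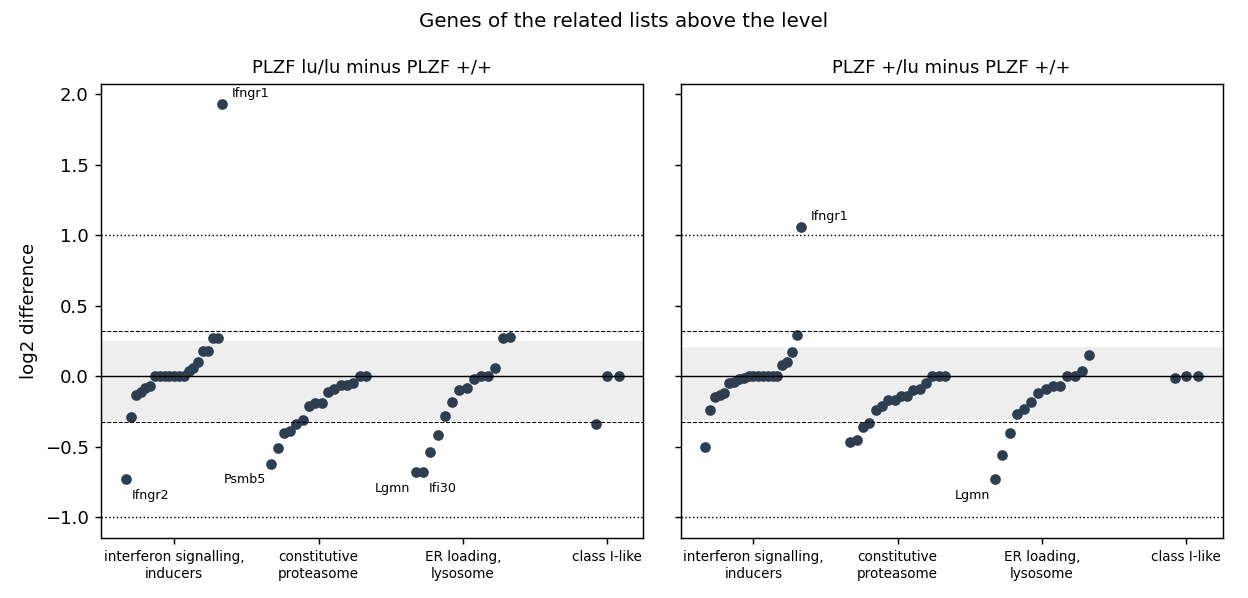
Log2 differences of the genes above the level in the 4 related lists, PLZF lu/lu minus PLZF +/+ on the left and PLZF +/lu minus PLZF +/+ on the right, with dashed lines at a log2 difference of 0.32, dotted lines at 2-fold and the grey band of all probe sets above the level, from the 5th to the 95th percentile. Genes past 1.5-fold are named, and the proteasome genes lie at or below 0 in both panels in the values as deposited.

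Markers of other cells that the sort could hold were set beside these values, and their part in the results was not tested. Of 7 B cell genes, 3 exceeded the level on any array, and the summed intensity was 1804 in PLZF lu/lu, 1832 in PLZF +/lu and 2049 in PLZF +/+ cells, most of it from Cd79b. Ms4a1 and Cd79a were at 34.0 and 38.8 on all 3 arrays. Of 11 dendritic cell and macrophage genes, 2 exceeded the level on any array, with sums over the 11 of 763, 778 and 765 in the same order. Siglech was at 146 on all 3 arrays, and Zbtb46 was at 100.4, 108.3 and 100.4. Itgax, Flt3, Csf1r and Lyz2 stayed below the level. Of 8 thymic epithelial genes, 6 exceeded the level, with sums of 2381, 2166 and 2050. The order of these sums is that of Ly75, given below. Of the 8, 2 were higher in PLZF lu/lu than in PLZF +/+, 2 lower and 4 equal. Epcam and Krt5 were below it, at 66.7 and 68.4 on all 3 arrays. Foxn1 and Aire were above it, at 112.5 and 123.6 on all 3 arrays. Also above it were Krt8 at 173, 185 and 185, Cldn4 at 201, 225 and 198 and Ccl25 at 450, 452 and 512. Ly75, also a lectin of other leukocytes, was at 1185 in PLZF lu/lu, 933 in PLZF +/lu and 784 in PLZF +/+ cells. Genes of the CD8 coreceptor, against whose alpha chain the cells were sorted, were higher with the luxoid allele. Cd8a was at 601, 519 and 369 and Cd8b1 at 2958, 2263 and 1290. The same order of genotypes was seen for H2-Q2, H2-Q5, H2-Ob, H2-K2 and the probe set of H2-T-ps and H2-T23. It was also seen at 9 of the 19 Nlrc5 probe sets, while the other 10 were brightest in PLZF +/lu. Both probe sets of H2-K1 and H2-D1, and H2-Q4, H2-T24 and H2-T10, were brightest in PLZF +/lu and did not have this order. Above the level, PLZF lu/lu was the brightest array at 13 of 45 members with 1 symbol, beside 2243 of 15090 probe sets. How many of all probe sets had the full order was not counted. Of the related lists, Ifngr1, Ifnar2, Jak1, Jak2 and Ly75 were among those with the order of Cd8a and Cd8b1. In sorted cells measured in bulk, fewer cells of a type and less RNA per cell cannot be told apart.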

How the data were processed

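Total RNA of double-sorted thymocytes was hybridised to Affymetrix Mouse Gene ST arrays, 1 per genotype. The authors processed the scans with GenePattern modules, left out normalization controls and deposited linear intensities of 24800 probe sets. As genome build, mm 8 is named in the submitters' processing notes. How signals were background-corrected, summarised and scaled the sources used here do not state, so small differences and the many ties cannot be traced to a step. Intensities were used as deposited and compared as log2 differences, with values within 1e-06 taken as equal. All 3 value columns belong to a sample.

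Names came from the annotation of the platform. Of all probe sets, 21065 had 1 symbol, 1187 several and 2548 none. A gene of the related lists with several probe sets is represented by its probe set of highest mean log2 intensity. The members, lists and thresholds were chosen with earlier results of these data known. Members above the level are named with their values where they passed 0.32 on the log2 scale in any comparison or stood on a fixed list of the main class I, class II and peptide supply genes, and the rest are given for completeness. With 1 array per genotype there was no test, and precision is limited by the number of arrays.

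The alternatives were quantile normalization, median centring, an offset of 32, exclusion of dim probe sets, 1 probe set per gene, including probe sets with several symbols, a threshold of 1.5-fold in place of 2-fold, and the mean of PLZF +/lu and PLZF +/+ in place of PLZF +/+. Promoter sequences are those of RefSeq, and an alignment of the heavy chain proteins was not run. Counting was tested on simulated data. Python 3.11.15 with numpy 2.4.6, pandas 2.3.3 and matplotlib 3.10.9 was used.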

Additional observations from a re-analysis of the deposited data

How the results depend on the processing

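Quantile normalization, median centring, adding 32 to each intensity and including the probe sets with several symbols left the counts past each threshold and the count brightest in PLZF +/lu within 1.5 times, and the medians over all members within 0.05 on the log2 scale, of their values as deposited, and the scalings turned no difference past 0.32 (log2) of a member above the level. At 1.5-fold in place of 2-fold, 9 members differed between PLZF lu/lu and PLZF +/+, against 1 at 2-fold, 8 between PLZF +/lu and PLZF +/+, against 0, and 1 between PLZF lu/lu and PLZF +/lu, against 0. With the mean of PLZF +/lu and PLZF +/+ in place of PLZF +/+, 0 members were past 2-fold and 7 past 0.32, against 1 and 20. With 1 probe set per gene, 7 genes of 45 were past 0.32 for PLZF lu/lu and 5 for PLZF +/lu against PLZF +/+, in place of 20 and 21 probe sets of 63, since 19 probe sets of Nlrc5 became 1. In the same way 13 genes were brightest in PLZF +/lu, against 22 probe sets, the median difference of PLZF +/lu from PLZF +/+ was 0.00, against 0.05, and that of the regulators was 0.00 for both PLZF lu/lu and PLZF +/lu, against 0.53 and 0.55. Without the dim probe sets the median over members was 0.22 for PLZF lu/lu and 0.20 for PLZF +/lu against PLZF +/+, in place of 0.00 and 0.05, since the 18 dim probe sets were left out. No paired analysis was possible because there is 1 array per genotype. Signal over background limits H2-Aa, H2-Ab1, H2-Ea, H2-Eb2 and Ciita, which lay below the level.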
